A study of Macaca mulatta with 11 samples.

Results

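The genes described here encode the constitutive subunits of the proteasome, measured in cultured mesenchymal stromal cells grown from the bone marrow of rhesus monkeys. A probe set was taken as a member when the platform annotation gave it exactly 1 gene symbol, and that symbol began with PSMA, PSMB, PSMC, PSMD, PSME or PSMF followed by a number. The 3 interferon-inducible subunits PSMB8, PSMB9 and PSMB10 were left out and are described separately below. The rule found 57 probe sets of 34 genes, out of 22215 probe sets on the array and 11963 genes named by 1 symbol. The 20S core (PSMA and PSMB genes) had 13 genes and 21 probe sets, the 19S cap (PSMC and PSMD genes) 17 genes and 26 probe sets, and the activator class (PSME and PSMF genes) 4 genes and 10 probe sets. Another 5 probe sets carried a subunit symbol together with another gene's symbol and were not used. No expression value entered the choice.

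The study set gene expression in such cultures against the age of the donor, and hybridised total RNA of 11 cultures to a human GeneChip array. The 4 arrays titled fetal came from 2 donors at gestation day 120 (fetal arrays 1 and 2) and 2 newborn donors (fetal arrays 3 and 4), whose marrow was flushed from long bones at harvest. The 4 infant arrays came from donors of 6, 6, 3 and 5 months and the 3 adult arrays from donors of 7, 7 and 8 years, and this marrow was aspirated under ketamine and lidocaine. All cultures were untreated cells that adhered to plastic in DMEM with fetal bovine serum, and were harvested at the second passage. Flushing of marrow was used for all fetal arrays and no others, so collection and this group cannot be told apart. The labels give no sex and no animal identity, so p-values measure the spread between these cultures. The probes were designed for human transcripts, so a difference between rhesus and human sequence can dim a probe set, and levels of different genes are given as measured signal only.

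The proteasome degrades proteins that carry ubiquitin chains. Its 20S core is a barrel of stacked rings, in which alpha subunits (PSMA) gate the entrance and beta subunits (PSMB) form the chamber with the proteolytic sites. The 19S cap binds the ubiquitin chain, removes it, and unfolds the substrate with a ring of ATPases (PSMC), while PSMD genes encode its scaffold, receptors, lid and several assembly chaperones. PSME proteins are alternative regulators of the core, and PSMF1 encodes a protein first described as an inhibitor. Cells are known to adjust the subunit genes as a set, through the transcription factor NFE2L1.

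The brightest probe set of each gene, which leads the account of that gene, had a mean between 7.24 and 10.64 on the log2 scale. The median over all probe sets of the array was 7.38. Of the 57 member probe sets, 47 lay above that median and 10 did not; the leading probe sets of PSMC6 and PSMD10, both at 7.24, were among the 10. The medians of the 11 arrays, between 164.9 and 169.6 intensity units, lay close together. Mesenchymal stromal markers were bright in every array (COL1A1 had a mean of 14.64, VIM 13.73 and ENG 9.02), whereas NT5E had a mean of 7.01, below the median of the array. The summed intensity of 11 macrophage and leukocyte markers was 2182 to 2475 in fetal, 2122 to 2500 in infant and 2289 to 2791 in adult arrays. That of 8 B and plasma cell markers was 1602 to 1701 in fetal, 1455 to 1725 in infant and 1977 to 11784 in adult arrays, the high values being 9035 in adult array 1 and 11784 in adult array 2. In those arrays the leading probe sets of the light chain genes IGLC1 (12.82 and 13.23) and IGKC (9.36 and 9.90) were high. CD79A (7.92 and 7.82), MS4A1 (7.17 and 7.31) and MZB1 (7.86 and 7.70) were not raised there. The leading IGHM probe set stood at 8.13 in each, a second one at 9.13 and 9.34, and JCHAIN at 7.05 and 7.49. The sum of 5 erythroid markers was 888 to 977 in fetal, 917 to 1012 in infant and 919 to 986 in adult arrays. That of 5 endothelial markers was 923 to 979 in fetal, 949 to 1137 in infant and 1056 to 1115 in adult arrays, so every adult array was above every fetal array in this sum. No single marker was so separated by its leading probe set. PECAM1 had 7.886 in adult array 3 and 7.887 in fetal array 2, and TEK 8.427 in adult array 1 and 8.491 in fetal array 2. VWF, CDH5 and KDR also overlapped, and KDR was higher by 0.084 in the fetal mean. Above the median of the array lay 8 of 11 macrophage and leukocyte, 5 of 8 B and plasma cell, 3 of 5 erythroid and 2 of 5 endothelial markers. Fewer cells of a type and less RNA per cell cannot be told apart in such cultures.

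No subunit gene passed the test between any of the age groups. In a limma fit with 1 mean per group, adjusted over all probe sets, 0 of 57 members had an adjusted p under 0.05 between fetal and adult arrays, where 0.131% of all probe sets did. The members nonetheless lay mostly on one side: 46 of 57 were higher in fetal than in adult arrays and 11 lower, with a median difference of 0.18 log2 units, against 47.5% of all probe sets above 0 and a median of -0.0085. Among probe sets above the median level the background was 55.8% above 0 with a median of 0.026, and the members above that level numbered 41 of 47 higher with a median of 0.23. Taking 1 probe set per gene, 30 of 34 genes were higher. An unadjusted p under 0.05 was reached by 7 members, all higher in fetal arrays, which is 12.3% of the members against 8.96% of all probe sets (4.83% higher and 4.12% lower). Among the 47 brighter members it was 12.8%, against a background of 12.9%. Without adult array 3 the median difference was 0.078, and 39 of 57 members were higher.

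The intervals bound the size of the differences in measured signal, each for 1 probe set taken alone. Of the 57 members, 10 were dim, not above the median level of the array. In each of the fetal against adult, infant against adult and fetal against infant comparisons, the 95% intervals of all 57 members lay inside a log2 difference of 1 in either direction. The widest bounds were -0.82 and 0.97 for fetal against adult, -0.80 and 0.70 for infant against adult, and -0.74 and 0.89 for fetal against infant. Between newborn and gestation day 120 cultures, with 2 arrays each, 56 of 57 intervals lay inside that bound.

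**Figure D1:**
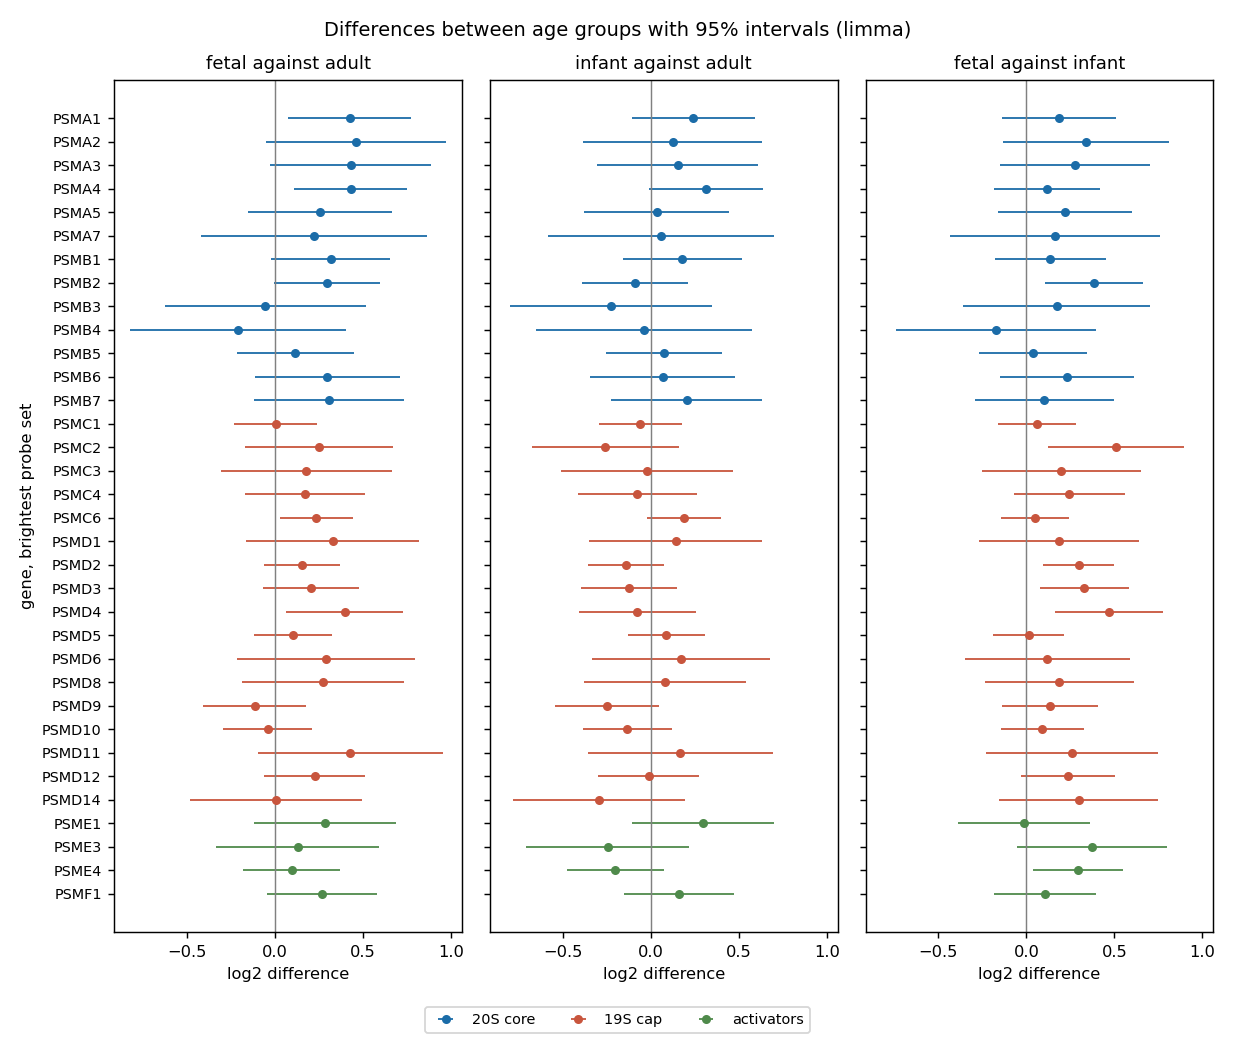
Difference in log2 intensity between age groups (horizontal axes) for the brightest probe set of each of the 34 subunit genes (vertical axis), with limma 95% intervals; points right of 0 are higher in the first-named group. Most fetal against adult and fetal against infant points lie right of 0, the infant against adult points lie on both sides, and no interval reaches a difference of 1.

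In the 20S core the median difference between fetal and adult arrays was 0.27, with 17 of 21 probe sets higher; 0.17 was the median of the 19S cap, with 21 of 26 higher, and 0.077 that of the activators, with 8 of 10 higher. The order of these medians was not tested. Without adult array 3 they were 0.092, 0.083 and 0.041, and without adult array 2 the core median was 0.39. All 6 alpha subunit genes measured here had a higher fetal than adult mean by the leading probe set. The second PSMA2 probe set did not, with means of 7.71 in fetal and 7.74 in adult arrays. PSMA4 had the smallest p of any leading probe set, with log2 values of 8.56, 8.60, 8.73 and 8.22 in fetal arrays 1 to 4, 8.21, 8.66, 8.51 and 8.25 in infant arrays 1 to 4, and 8.12, 8.31 and 7.86 in adult arrays 1 to 3. The fetal and adult arrays overlapped, since fetal array 4 lay between the adult arrays, and the limma difference of 0.43 (SE 0.15, 95% interval 0.11 to 0.75, adjusted p = 0.374) did not pass. PSMA1 read 10.89, 10.94, 10.86 and 10.59 in fetal arrays 1 to 4, 10.75, 10.80, 10.86 and 10.13 in infant arrays 1 to 4, and 10.59, 10.35 and 10.25 in adult arrays 1 to 3. Its lowest fetal array and its highest adult array both round to 10.59, and the difference was 0.42 (SE 0.16, 95% interval 0.074 to 0.77, adjusted p = 0.437). The other 2 probe sets of PSMA1 differed by 0.44 and 0.25. PSMA2, PSMA3, PSMA5 and PSMA7 differed by 0.46, 0.43, 0.26 and 0.22, with adjusted p between 0.599 and 0.887. PSMA7 varied most of all leading probe sets, with an SD of 0.46 over the 11 arrays. It stood at 8.26 in adult array 3, against 9.72 and 9.78 in the other adult arrays, which lay above its fetal mean of 9.48.

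The 3 catalytic beta subunits did not pass in any comparison. PSMB5, the chymotrypsin-like site, measured 9.84, 9.84, 9.74 and 9.54 in fetal arrays 1 to 4, 9.95, 9.71, 9.92 and 9.22 in infant arrays 1 to 4, and 9.66, 9.69 and 9.52 in adult arrays 1 to 3. Fetal and adult arrays overlapped and the lowest value was infant array 4; the fetal minus adult difference was 0.11 (SE 0.15, 95% interval -0.22 to 0.45, adjusted p = 0.886) by limma. PSMB6, the caspase-like site, measured 10.92, 10.56, 10.62 and 10.18 in fetal arrays 1 to 4, 10.43, 10.35, 10.56 and 10.02 in infant arrays 1 to 4, and 10.47, 10.51 and 9.84 in adult arrays 1 to 3. Here the lowest array of each group was fetal 4, infant 4 and adult 3, and the difference was 0.30 (SE 0.19, 95% interval -0.12 to 0.71, adjusted p = 0.711). PSMB7, the trypsin-like site, measured 10.42, 10.47, 10.72 and 9.81 in fetal arrays 1 to 4, 10.59, 10.37, 10.02 and 10.03 in infant arrays 1 to 4, and 10.26, 10.08 and 9.81 in adult arrays 1 to 3. Fetal array 4 and adult array 3 both stood at 9.81, and the difference was 0.31 (SE 0.20, 95% interval -0.12 to 0.73, adjusted p = 0.712). Without adult array 3 the fetal minus adult differences of PSMB5, PSMB6 and PSMB7 were 0.062, 0.078 and 0.18, and without fetal array 4 they were 0.18, 0.43 and 0.49. The infant minus adult differences of these genes were 0.075, 0.067 and 0.20.

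The remaining beta subunits shape the ring without a proteolytic site of their own. The second-brightest probe set of PSMB1 had the smallest p of all members, with values of 9.60, 9.74, 9.69 and 9.53 in fetal arrays 1 to 4, 9.34, 9.70, 9.51 and 9.23 in infant arrays 1 to 4, and 9.37, 9.30 and 9.20 in adult arrays 1 to 3. Every fetal array lay above every adult array, and the limma difference was 0.35 (SE 0.12, 95% interval 0.098 to 0.60, adjusted p = 0.347). Over all members, 3 probe sets were higher in every fetal than in every adult array, this one and 2 of PSMA1, and 0 were lower in every fetal array, where 3.66% and 4.41% of all probe sets were. The brightest PSMB1 probe set differed by 0.31 (adjusted p = 0.601), and the third, at a mean of 6.97, by 0.024. PSMB4 went the other way, with values of 9.83, 9.97, 9.97 and 9.53 in fetal arrays 1 to 4, 10.15, 10.64, 9.79 and 9.40 in infant arrays 1 to 4, and 10.70, 9.99 and 9.42 in adult arrays 1 to 3. Adult array 1 and infant array 2 were its highest arrays and infant array 4 its lowest, and the fetal minus adult difference was -0.21 (SE 0.29, 95% interval -0.82 to 0.40, adjusted p = 0.887). Without adult array 1 that difference was 0.12. PSMB3 was the only other leading 20S probe set below 0, at -0.055 (adjusted p = 0.978).

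**Figure D2:**
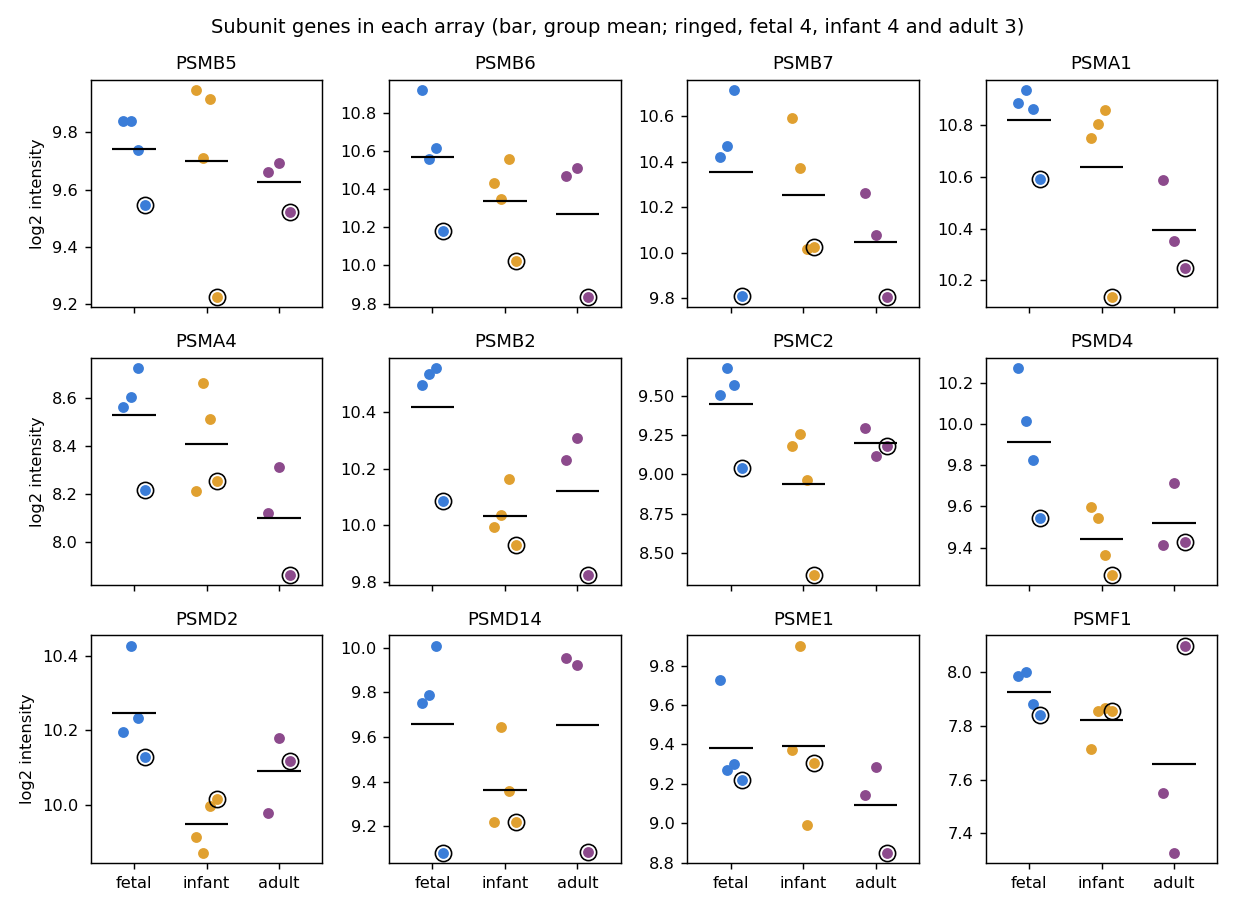
Log2 intensity (vertical axes, each with its own range) of the leading probe set of 12 subunit genes in the 4 fetal, 4 infant and 3 adult arrays, 1 point per array, with the group mean as a bar and fetal array 4, infant array 4 and adult array 3 ringed. The ringed points are low in most panels of the 20S core, whereas in PSMF1 adult array 3 is the highest array, at 8.10.

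The ATPase ring of the cap gave no pass. The leading probe sets of PSMC1, PSMC2, PSMC3, PSMC4 and PSMC6 had means from 7.24 (PSMC6) to 9.56 (PSMC1), and their fetal minus adult differences were 0.0026, 0.25, 0.18, 0.17 and 0.23. PSMC6 had the smallest p among them, with values of 7.34, 7.23, 7.38 and 7.34 in fetal arrays 1 to 4, 7.24, 7.34, 7.24 and 7.27 in infant arrays 1 to 4, and 7.09, 7.24 and 6.93 in adult arrays 1 to 3. The fetal arrays spanned a narrow range whose lower end fell below the highest adult array, and the difference was 0.23 (SE 0.098, 95% interval 0.025 to 0.44, adjusted p = 0.487). PSMC2 read 9.51, 9.68, 9.57 and 9.04 in fetal arrays 1 to 4, 9.18, 9.26, 8.96 and 8.36 in infant arrays 1 to 4, and 9.30, 9.12 and 9.18 in adult arrays 1 to 3. Infant array 4 was its lowest and fetal arrays 1 to 3 its highest, and the fetal minus infant difference of 0.51 (adjusted p = 0.621) was the largest of any member in that comparison. The dim second probe set of PSMC2, with a mean of 7.27, differed by -0.21 (adjusted p = 0.657) between fetal and adult arrays.

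Among the PSMD genes, PSMD4, a ubiquitin receptor of the cap, had the smallest p of the fetal against adult comparison. Its leading probe set read 10.27, 10.01, 9.83 and 9.54 in fetal arrays 1 to 4, 9.60, 9.54, 9.36 and 9.27 in infant arrays 1 to 4, and 9.41, 9.72 and 9.43 in adult arrays 1 to 3. Both gestation day 120 arrays were above all infant and adult arrays, while fetal array 4 lay within the adult range. The limma difference was 0.40 (SE 0.15, 95% interval 0.063 to 0.73, adjusted p = 0.449) against adult and 0.47 (SE 0.14, 95% interval 0.16 to 0.78, adjusted p = 0.546) against infant arrays. The other PSMD4 probe sets differed between fetal and adult arrays by 0.30, 0.31 and 0.21. The scaffold genes PSMD1 and PSMD2 were higher by 0.33 and 0.15 in the fetal mean. The lid genes PSMD3, PSMD6, PSMD8, PSMD11 and PSMD12 were all higher in the fetal mean, by 0.20, 0.29, 0.27, 0.43 and 0.23, and PSMD14, the deubiquitinase of the lid, differed by 0.0045. PSMD14 stood at 9.08 in fetal array 4 and 9.09 in adult array 3 while the other arrays of those groups were between 9.75 and 10.01, so its group means met.

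PSMD5, PSMD9 and PSMD10 encode chaperones that help assemble the ATPase ring and leave the finished cap. PSMD9 measured 7.68, 7.49, 7.89 and 7.68 in fetal arrays 1 to 4, 7.83, 7.44, 7.68 and 7.27 in infant arrays 1 to 4, and 7.86, 7.87 and 7.68 in adult arrays 1 to 3. Adult arrays were close together and within the fetal range, and the fetal minus adult difference was -0.12 (SE 0.14, 95% interval -0.41 to 0.18, adjusted p = 0.865). Its second probe set differed by -0.065 (adjusted p = 0.906). PSMD10 differed by -0.042 (adjusted p = 0.957) and the leading probe set of PSMD5 by 0.10 (adjusted p = 0.835). The dim second probe set of PSMD5, at a mean of 6.93, had the lowest difference of all members, -0.25 (adjusted p = 0.659), with adult array 2 at 7.46 and adult array 1 at 6.71.

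The activator class held 4 genes, and 0 of its 10 probe sets reached an unadjusted p under 0.05 between fetal and adult arrays. PSME1, a subunit of the PA28 ring that opens the core, read 9.73, 9.27, 9.30 and 9.22 in fetal arrays 1 to 4, 9.37, 9.90, 8.99 and 9.31 in infant arrays 1 to 4, and 9.15, 9.29 and 8.85 in adult arrays 1 to 3. Fetal array 1 and infant array 2 stood above the rest, and the difference was 0.29 (SE 0.19, 95% interval -0.12 to 0.69, adjusted p = 0.716). PSME3, the nuclear member of that family, read 9.55, 9.58, 9.78 and 9.10 in fetal arrays 1 to 4, 8.90, 9.40, 8.88 and 9.34 in infant arrays 1 to 4, and 9.73, 9.57 and 8.83 in adult arrays 1 to 3. Its adult arrays 1 and 2 were within the fetal range and adult array 3 was the lowest of all, and the difference was 0.13 (SE 0.22, 95% interval -0.33 to 0.59, adjusted p = 0.914). Without adult array 3 it was -0.15. The other PSME3 probe sets had fetal and adult means of 8.67 and 8.66, 8.09 and 8.04, and 7.51 and 7.53.

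PSME4, the large single-chain activator, read 8.07, 7.94, 8.04 and 8.27 in fetal arrays 1 to 4, 7.59, 8.05, 7.80 and 7.70 in infant arrays 1 to 4, and 8.18, 7.93 and 7.84 in adult arrays 1 to 3. Fetal array 4 was its highest array, and the difference was 0.094 (SE 0.13, 95% interval -0.18 to 0.37, adjusted p = 0.889). The dimmest probe set of PSME4, at a mean of 7.03, differed by -0.13 (adjusted p = 0.815). PSMF1 read 7.98, 8.00, 7.88 and 7.84 in fetal arrays 1 to 4, 7.71, 7.85, 7.87 and 7.85 in infant arrays 1 to 4, and 7.55, 7.33 and 8.10 in adult arrays 1 to 3. It was the only leading probe set whose highest array was adult 3, while adult array 2 was its lowest, and the difference was 0.27 (SE 0.15, 95% interval -0.046 to 0.58, adjusted p = 0.641).

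Infant and adult arrays were not separated. By limma 0 of 57 members passed, where 0.018% of all probe sets did, and 0 had an unadjusted p under 0.05, where 6.19% of all probe sets did (2.39% higher, 3.79% lower) and 8.06% of those above the median level. In addition 0 members were higher and 0 lower in every infant than in every adult array, where 1.8% and 3.18% of all probe sets were. The members were 32 higher and 25 lower in infant arrays, with a median of 0.056 against -0.013 for all probe sets. The smallest p values of the members higher in infant arrays belonged to PSMA4 at 0.31 (adjusted p = 0.808), PSMC6 at 0.19 (adjusted p = 0.819) and the dim PSMD12 probe set at 0.17 (adjusted p = 0.842). The lower members of smallest p were PSMD9 at -0.25 (adjusted p = 0.819), the dim PSMD5 probe set at -0.24 (adjusted p = 0.842) and PSME4 at -0.20 (adjusted p = 0.852). Without adult array 3 the median of the members was -0.095, with 18 of 57 higher and 5 at an unadjusted p under 0.05, where 7.94% of all probe sets were. With the replicate number of the titles as a block, 0 members passed and 5 had an unadjusted p under 0.05, where 8.23% of all probe sets did.

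Between fetal and infant arrays 0 of 57 members passed by limma, and 0% of all probe sets did. Here 48 of 57 members were higher in fetal arrays, against 51.6% of all probe sets and 60.1% of those above the median level, and the median was 0.12. All 17 leading probe sets of the cap were higher, by 0.013 to 0.51, as were 12 of 13 of the core and 3 of 4 of the activators. An unadjusted p under 0.05 was reached by 6 members, all higher in fetal arrays, or 10.5% against 6.87% of all probe sets (4.55% higher and 2.33% lower). Among brighter probe sets it was 12.8% of the members and 10.4% of the background. PSMD2 was the only member higher in every fetal than in every infant array, where 2.13% of all probe sets were, and 0 were lower in every fetal array, where 1.21% were. It read 10.20, 10.43, 10.23 and 10.13 in fetal arrays 1 to 4, 9.91, 9.87, 10.00 and 10.02 in infant arrays 1 to 4, and 9.98, 10.18 and 10.12 in adult arrays 1 to 3, and the difference was 0.30 (SE 0.093, 95% interval 0.096 to 0.50, adjusted p = 0.574). PSMB2 read 10.50, 10.53, 10.55 and 10.09 in fetal arrays 1 to 4, 10.00, 10.04, 10.16 and 9.93 in infant arrays 1 to 4, and 10.23, 10.31 and 9.83 in adult arrays 1 to 3. Fetal arrays 1 to 3 were above all other arrays and fetal array 4 was among the infant values, and the difference was 0.39 (SE 0.13, 95% interval 0.11 to 0.67, adjusted p = 0.615). The second PSMB2 probe set had means of 8.61 in fetal and 8.56 in infant arrays, and fetal array 4 was its highest. The lower members of smallest p were the dim probe sets of PSMD9, PSMF1 and PSMC2, at -0.16, -0.20 and -0.13. Without infant array 4 the median of the members was 0.065.

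A test for any difference among the 3 age groups gave 0 of 57 members at an adjusted p under 0.05 by limma, where 0.036% of all probe sets passed. The smallest adjusted p was 0.442, and 8 members had an unadjusted p under 0.05, where 8.01% of all probe sets did.

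Within the arrays titled fetal, the newborn cultures were compared with those of gestation day 120. No member passed by limma, and 0% of all probe sets did. The members were 40 lower and 17 higher in newborn cultures, with a median of -0.11 against -0.0052 for all probe sets, of which 48.5% were higher. In both newborn arrays 3 members were above and 10 below both gestation day 120 arrays, where 13.7% and 15.2% of all probe sets were. All 13 leading probe sets of the core were lower, with differences from -0.55 to -0.11. PSMD4, whose values are given above, was the only member at an unadjusted p under 0.05, where 1.81% of all probe sets and 2.38% of those above the median level were, with a difference of -0.46 (SE 0.17, 95% interval -0.82 to -0.093, adjusted p = 1). The next lower members were the dim PSMF1 probe set at -0.37 and PSMD3 at -0.27, and the higher ones PSMD10 at 0.26, the second PSMB2 probe set at 0.16 and PSMD9 at 0.20. The newborn arrays did not resemble each other: the mean deviation of all members from their own means was 0.18 in fetal array 3 and -0.092 in fetal array 4. Without fetal array 4 the median difference was 0.048, so the direction rested on that culture.

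Fetal array 4, infant array 4 and adult array 3 were all below the gene's own mean in 12 of 13 core genes, 9 of 17 cap genes and 0 of 4 activator genes by the leading probe sets, and in 28 of all 57 members. The arrays were picked after their values were seen, and no background share was taken for this count. Of all 1843 probe sets with a mean above 9, 860, 1147 and 1158 lay below their own mean in these arrays, in that order. For each probe set the deviation of every array from the probe set's own mean was taken, and these deviations were averaged over the members of a class. For the 20S core they were 0.20, 0.17, 0.22 and -0.13 in fetal arrays 1 to 4, 0.0037, 0.18, 0.00012 and -0.31 in infant arrays 1 to 4, and 0.078, 0.010 and -0.41 in adult arrays 1 to 3. Each group held 1 array that was low, of a newborn, a 5-month and an 8-year donor. The group means of 0.11 ± 0.16 (SD, n = 4), -0.033 ± 0.20 (SD, n = 4) and -0.11 ± 0.26 (SD, n = 3) were closer together than the arrays within each group.

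For the 19S cap the same arrays were low, at -0.084 in fetal array 4, -0.21 in infant array 4 and -0.21 in adult array 3. The activators spread less, from -0.13 to 0.18, with fetal array 1 and infant array 2 the highest. Bright probe sets in general were also lower in infant array 4 and adult array 3, though by less, and not in fetal array 4: the 1843 probe sets with a mean above 9 deviated by 0.040 in fetal array 4, -0.062 in infant array 4 and -0.13 in adult array 3, where the 30 members above 9 deviated by -0.18, -0.34 and -0.45. The part of this general shift in the members' values was not tested. The B and plasma cell sum was high in adult arrays 1 and 2 and not in adult array 3, and the endothelial sum was higher in every adult than in every fetal array; their part in the adult values was not tested either.

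**Figure D3:**
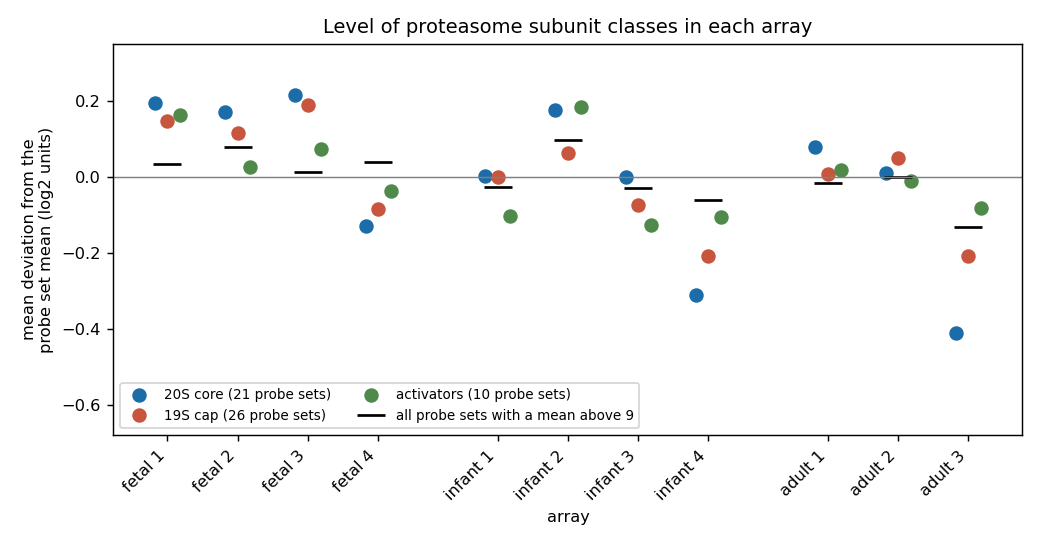
Mean deviation of each subunit class from the probe set means (vertical axis, log2 units) in each of the 11 arrays (horizontal axis), with black dashes for all 1843 probe sets with a mean above 9. The 20S core stands at -0.13 in fetal array 4, -0.31 in infant array 4 and -0.41 in adult array 3, below the dashes in each, and at 0.17 or above in fetal arrays 1 to 3 and infant array 2.

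Gene by gene the same arrays recurred. Among the 34 leading probe sets, adult array 3 was the lowest of all 11 arrays in 15 and infant array 4 in 11. Fetal array 4 was the lowest fetal array in 27 of 34 genes, infant array 4 the lowest infant array in 20, and adult array 3 the lowest adult array in 28. All of these held together in 14 of 34 genes, and in 10 of 13 core genes, 4 of 17 cap genes and 0 of 4 activator genes. Over all probe sets they held together in 4.38%, and over those with a mean above 9 in 16.3%. These arrays were singled out after their values were seen, so the counts are descriptions.

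**Figure D4:**
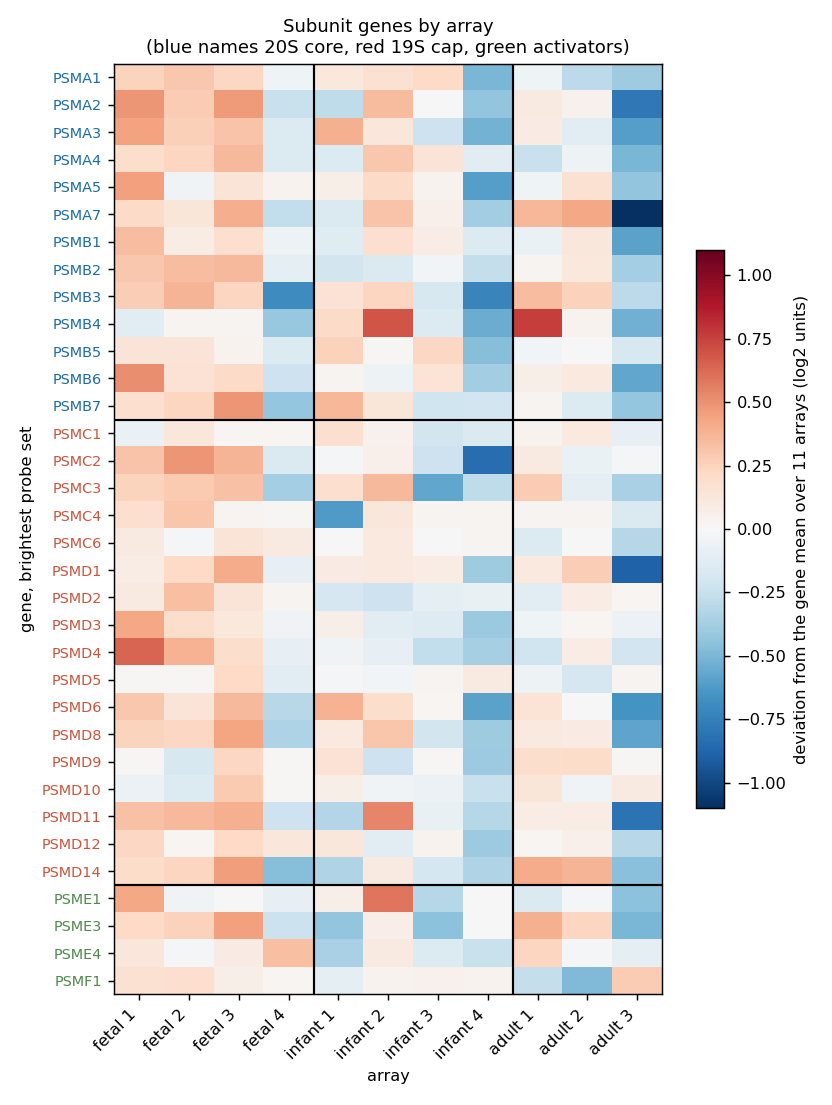
Deviation of each of the 34 subunit genes (rows, leading probe set) from its own mean over the 11 arrays (columns), in log2 units, red above and blue below. Columns fetal 4, infant 4 and adult 3 are blue through most of the 20S rows, while PSMD5, PSMD9, PSMD10 and PSMF1 stay pale or go the other way in adult 3.

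The members' values over the 11 arrays were correlated with each other, as a description without a test, since the arrays share their normalisation and group structure. The mean Pearson correlation between pairs of leading probe sets was 0.43, and 0.39 after the group means were removed. For probe sets above the median level it was 0.50 in the core (0.49 with group means removed), 0.32 in the cap (0.24) and 0.17 in the activators (0.14), against 0.014 over all probe sets above that level. Each leading probe set was then set against the mean deviation of the other genes' members that lay above the median level. The correlation exceeded 0.7 in 11 of 13 core genes, 8 of 17 cap genes and 0 of 4 activator genes. It did so in 5.61% of 11060 other probe sets above that level, set against the 47 members above it.

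The genes closest to the common pattern were PSMA2 and PSMD8, both at 0.96, PSMD11 at 0.92, PSMD6 at 0.88 and PSMA3 at 0.88. The catalytic PSMB6, PSMB7 and PSMB5 stood at 0.85, 0.77 and 0.61. The genes farthest from it were PSMF1 at -0.15, PSMD5 at 0.063, PSMD10 at 0.23, PSMD9 at 0.26 and PSMD2 at 0.28. The 3 members that encode assembly chaperones of the ATPase ring were thus among the 5 least alike. PSMD5, PSMD9 and PSMD10 were also among the dimmest leading probe sets, at means of 7.39, 7.67 and 7.24.

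Probe sets of 1 gene did not always follow each other. The 16 genes with several probe sets gave 22 pairs in which both lay above the median level, with a median correlation of 0.48 and 16 of 22 above 0, and 10 pairs with at least 1 dimmer member, with a median of -0.048. The lowest was -0.56, between the 2 dimmest probe sets of PSMD4, and the highest 0.88, between 2 probe sets of PSMA1. Between fetal and adult arrays the probe sets of 11 of these 16 genes all had the same direction, and those of the other 5 were split.

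The wider pathway was represented by 30 genes and 45 probe sets from a list of 43 symbols. In each comparison 0 of the 45 passed by limma. Between fetal and adult arrays 3 of 45 had an unadjusted p under 0.05, where 8.96% of all probe sets did, all higher in fetal arrays: VCP, the segregase that pulls ubiquitinated proteins from complexes, by 0.63 (adjusted p = 0.0697), POMP, the chaperone that matures the core, by 0.40 (adjusted p = 0.511), and ECPAS, which binds the assembled proteasome, by 0.34 (adjusted p = 0.512). The other ECPAS probe sets, also above the median level of the array, differed by 0.17 and -0.20. VCP read 10.64, 10.73, 10.74 and 10.33 in fetal arrays 1 to 4, 10.34, 10.25, 10.50 and 10.15 in infant arrays 1 to 4, and 10.11, 9.83 and 9.99 in adult arrays 1 to 3. Every fetal array of VCP was above every adult array, and its second, dim probe set differed by -0.080. Of the 45 probe sets, 1 was higher and 2 were lower at that level between infant and adult arrays, where 2.39% and 3.79% of all probe sets were. Between fetal and infant arrays 6 were higher and 0 lower, where 4.55% and 2.33% of all probe sets were.

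The interferon-inducible subunits, which replace the catalytic subunits in the immunoproteasome, did not pass. Their fetal minus adult differences were 0.24 for PSMB8, 0.31 for PSMB9 and 0.35 for PSMB10, with adjusted p of 0.811, 0.617 and 0.574. PSMB8 was highest in fetal array 1, at 8.58, and between 7.38 and 7.87 in all other arrays.

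The other pathway genes were set against the mean deviation, over the 11 arrays, of the 47 subunit probe sets above the median level. POMP had a correlation of 0.87, TXNL1, a thioredoxin-like protein bound to the cap, 0.86, and PSMG1, an assembly chaperone of the alpha ring, 0.78. PSMG2, another assembly factor with a fetal minus adult difference of -0.21, had 0.27. ADRM1, a ubiquitin receptor of the cap, had 0.66. The 5 measured regulators of proteasome gene transcription had a median of -0.46, with NFE2L1 at -0.65 and its other probe sets at -0.63 and -0.29. NFE2L1 was highest in adult array 3, at 11.41 against 10.68 and 10.81 in the other adult arrays, and between 10.26 and 10.87 in fetal and infant arrays. Its fetal minus adult difference was -0.29 (adjusted p = 0.683). The median over all other probe sets above the median level was 0.026.

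**Figure D5:**
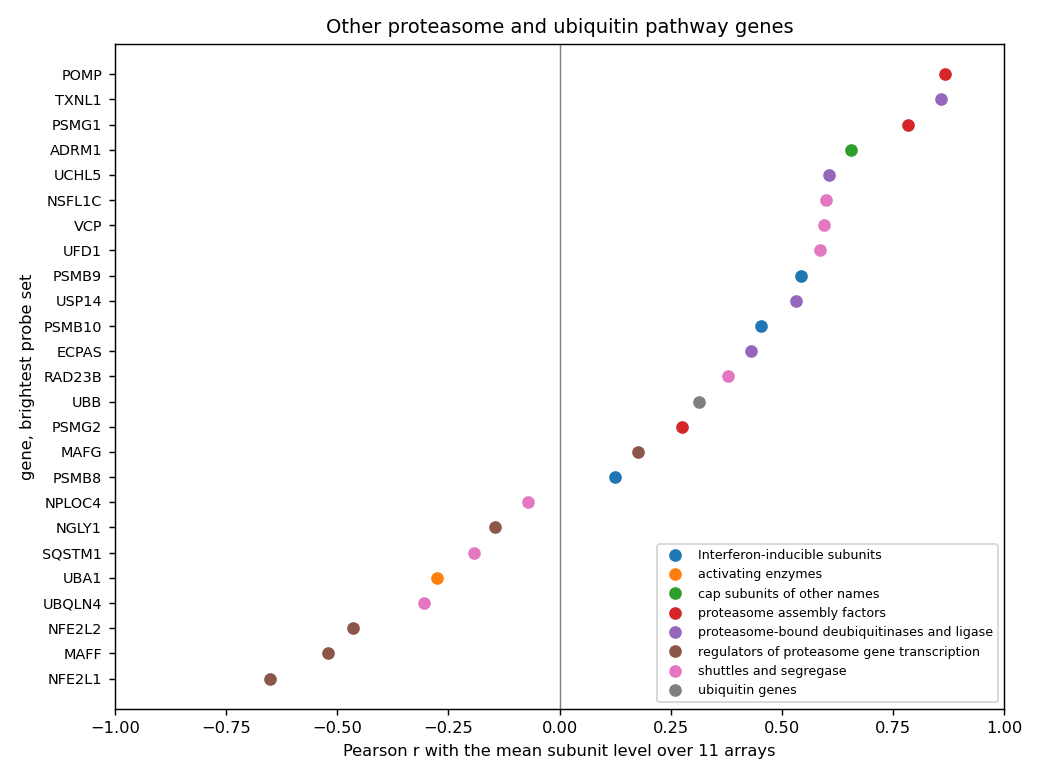
Pearson correlation over the 11 arrays (horizontal axis) between each of 25 other pathway genes above the median level (vertical axis, brightest probe set) and the mean deviation of the 47 subunit probe sets above that level, coloured by gene list. POMP, TXNL1 and PSMG1 lie between 0.78 and 0.87, PSMG2 lies at 0.27 and NFE2L1 at -0.65.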

How the data were processed

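Total RNA of 11 cultures was hybridised to a human array with 22215 probe sets, 1 array per culture. The deposited values are intensities on a linear scale, made by the authors with RMA per the submitters' processing notes; its version and settings are not given in the sources used here. All 11 value columns matched a title. For this report the values were put on the log2 scale and fitted with limma 3.58.1 in R 4.3.3: 1 mean per group over all 11 arrays (per stage for newborn against gestation day 120), empirical Bayes, two-sided, Benjamini-Hochberg adjustment over all 22215 probe sets, threshold 0.05, no filter. A simulated table was used to test the script. Symbols came from the platform annotation: 19065 probe sets had 1, 1043 several and 2107 none.

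Members and lists were chosen with earlier results of these data known, so no list was tested. Values per array are given for the catalytic and activator genes, for the 6 members of smallest p in each direction between fetal and adult arrays, and for the 3 in the other comparisons, in short form where they recur or are dim. The number of arrays limits the precision: the standard error of a fetal minus adult difference had a median of 0.15 log2 units.

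Equal replicate numbers were checked as pairs by correlating the arrays' deviations from their group means. For infant and adult arrays these correlations were 0.14, 0.13 and 0.20, all above 0.1. For fetal and adult arrays they were 0.068, 0.043 and -0.096, and for fetal and infant arrays 0.12, 0.0077, 0.041 and 0.28. The labels do not say what a number stands for. Alternatives were quantile normalisation, median centring, a filter at the median level, an offset of 50, array weights, a variance trend, the replicate block, leaving out each array, and leaving out adult and infant arrays 1 and 2 together. For fetal against adult, a further alternative set the gestation day 120 arrays alone against the adult arrays.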

Additional observations from a re-analysis of the deposited data

Results flagged for a closer look

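In 7 of 60 sets of 4 arrays tested, a gap to the nearest array took up more of the whole range than Dixon's 95% critical value allows. For independent sets chance gives about 1 in 20. These sets share arrays, and class means include members that were also tested, so they are not independent and the count cannot be held against that rate. The mean deviation of the 20S core in fetal array 4 was -0.13, against 0.17 in the nearest fetal array. PSMB2 in fetal array 4 was 10.09, against 10.50 in the nearest. In infant array 4, PSMA1 was 10.13 by its leading probe set, against 10.75 in the nearest infant array, and 9.61 by its dimmest probe set, against 10.27. The mean deviation of the activators in infant array 2 was 0.18, against -0.10 in the nearest. PSME1 in fetal array 1 was 9.73, against 9.30 in the nearest fetal array, and PSMF1 in infant array 1 was 7.71, against 7.85 in the nearest infant array. Why these arrays stand apart was not tested.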

How the results depend on the processing

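No member passed in any comparison under any of the alternatives run. By limma the smallest adjusted p of a member was 0.143 for fetal against infant (PSMD4, without fetal array 4). It was 0.0887 for any difference (PSMC2, with the replicate block). For fetal against adult and infant against adult it came from a PSMA1 probe set without adult and infant arrays 1 and 2. That fit leaves adult array 3 as the whole adult group, and the PSMA1 differences there were 0.77 and 0.56. Of 691 values of 37 named results under alternatives, 686 kept their direction and their side of the threshold, and 5 reversed.

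The counts of members at an unadjusted p under 0.05 are followed here by the share of all probe sets under the same setting. With the replicate block they were 20 (10.8%) for fetal against adult, 5 (8.23%) for infant against adult and 15 (10.4%) for any difference. With quantile normalisation they were 4 (8.18%), 1 (6.48%) and 2 (7.47%). For any difference they were 5 of 47 (10.2%) with the filter at the median level and 1 (7.89%) with a variance trend, and for newborn against gestation day 120 the count was 2 (4.39%) with array weights. Without adult and infant arrays 1 and 2, which leaves adult array 3 as the whole adult group, assumed to vary like the others, the counts were 26 (12.8%) for fetal against adult and 11 (9.95%) for infant against adult. The fetal against adult medians were then 0.41 for all members, 0.57 for the 20S core and 0.51 with 1 probe set per gene. PSMF1 (-0.17), PSMB4 (0.41) and PSMD9 (0.0064) reversed there. The cause of these shifts was not tested.

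Leaving out 1 array gave these ranges of the same counts: 3 (12.2%, without adult array 3) to 13 (9.43%, without fetal array 4) for fetal against adult, 0 to 5 (7.94%, without adult array 3) for infant against adult, 4 (7.9%, without infant array 4) to 12 (6.79%, without infant array 2) for fetal against infant, 0 to 4 (3.22%, without fetal array 3) for newborn against gestation day 120, and 1 (5.96%, without fetal array 2) to 11 (8.31%, without fetal array 4) for any difference. For infant against adult, 18 to 36 members were higher, and the medians ran from -0.095 to 0.095 for all members and from -0.12 to 0.064 for the cap, lowest without adult array 3. For newborn against gestation day 120, 14 to 34 were higher, and the medians ran from -0.23 to 0.048 for all members, -0.19 to 0.079 for the cap and -0.36 to 0.046 with 1 probe set per gene, lowest without fetal array 3 and highest without fetal array 4. Between fetal and adult arrays PSME3 ran from -0.15 to 0.30 and PSMB4 from -0.52 to 0.12.

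Only 2 arrays represent each of the newborn and gestation day 120 stages.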
